A study of Mus musculus with 8 samples.

Results

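Transcripts of 10 genes that drive or mark the cell cycle were followed in embryonic mouse hearts with and without *Dgcr8*. They were the D-type cyclin genes *Ccnd1*, *Ccnd2* and *Ccnd3*, the E-type cyclin genes *Ccne1* and *Ccne2*, the S and M phase cyclin genes *Ccna2*, *Ccnb1* and *Ccnb2*, the kinase gene *Cdk1* and the proliferation marker gene *Mki67*. They were taken by name from a table of 24385 genes, and all 10 had an entry. All 10 were also among the 10018 genes with a mean level of at least 1 FPKM (fragments per kilobase of transcript, scaled to the sequenced fragments of the library), and these were the genes tested. The 8 libraries formed 4 groups of 2 biological replicates, E8.5 WT, E8.5 cKO, E9.5 WT and E9.5 cKO, where E8.5 and E9.5 are days of embryonic development. All embryos were of C57BL/6 background. The cKO embryos are labelled Mesp1Cre/+; Dgcr8-/-, and by the study's methods they carried the *Mesp1*-Cre allele, floxed *Dgcr8* alleles and a *Rosa26* mT/mG reporter. The controls, labelled wild type, carried the same floxed alleles and the reporter but no Cre, so the groups differ by the Cre allele as well as by the deletion. *Dgcr8* encodes the RNA-binding partner of Drosha, which makes microRNA precursors. *Mesp1*-Cre acts in early mesoderm, so that cells of other origin in a dissected heart keep *Dgcr8*. The number of embryos pooled in a library was not given in the sources used here.

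Cyclins are the regulatory subunits of cyclin-dependent kinases. D-type cyclins with CDK4 or CDK6 begin the phosphorylation of the RB protein in G1, E-type cyclins with CDK2 carry the cell into S phase, cyclin A2 acts in S phase and G2, and the B-type cyclins with CDK1 drive mitosis. Transcripts of *Ccna2*, *Ccnb1*, *Ccnb2*, *Cdk1* and *Mki67* peak in S, G2 and M phase of dividing cells, whereas those of the D-type cyclins depend largely on growth signals. The heart tube at these stages grows by addition of progenitors and by division of its cardiomyocytes. The study asked whether cardiomyocytes without *Dgcr8* divide normally, which it examined by counting cultured cardiomyocytes and by staining for a mitotic histone mark. It also reported genes of the cell cycle and of DNA replication as lower in E9.5 cKO hearts. Cell cycle genes were reported as lower in single cKO cardiomyocytes too, and cyclin D2 was measured by q-PCR in cultured, transfected heart cells.

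The targeted gene was lower in the cKO libraries at both stages. At E8.5 the *Dgcr8* level was 7.10 and 8.60 FPKM in the controls against 1.64 and 4.67 FPKM in the mutants. At E9.5 it was 3.49 and 3.23 FPKM against 1.15 and 1.77 FPKM. The groups of a stage did not overlap, although neither difference passed adjustment (limma adjusted p = 0.590 at E8.5 and 0.317 at E9.5). None of 10 cardiomyocyte markers such as *Tnnt2* and *Myh6* was listed at 0 in any library. The same held for the endothelial, erythroid and yolk sac endoderm markers used below, so this does not tell tissues apart. The level of the median tested gene ranged from 3.85 to 9.90 FPKM over the libraries and was lower in every E9.5 library than in every E8.5 library. A change of FPKM is therefore also given relative to the change of the median gene. Loci under 300 bp took 64.2% of the summed FPKM of E8.5 cKO replicate 2 and 72.8% in E9.5 cKO replicate 1, against 37.9% to 53.0% in the other 6 libraries. Relative depth differed by at most 1.45-fold, and the absolute depth was unknown. In these bulk samples, fewer cells of a type and less RNA per cell cannot be told apart.

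Per kilobase, *Ccnd3* was the most abundant of the 10 genes in 7 of the 8 libraries and *Mki67* was the least abundant in all 8. *Ccnd3* stood between percentiles 94.1 and 97.3 of the tested genes of a library and *Cdk1* between percentiles 90.3 and 93.3. *Ccnb1*, *Ccnb2* and *Ccna2* lay between percentiles 85.8 and 94.5. *Mki67*, whose product coats mitotic chromosomes, did not exceed percentile 31.3, with 0.509 to 2.23 FPKM.

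**Figure D1:**
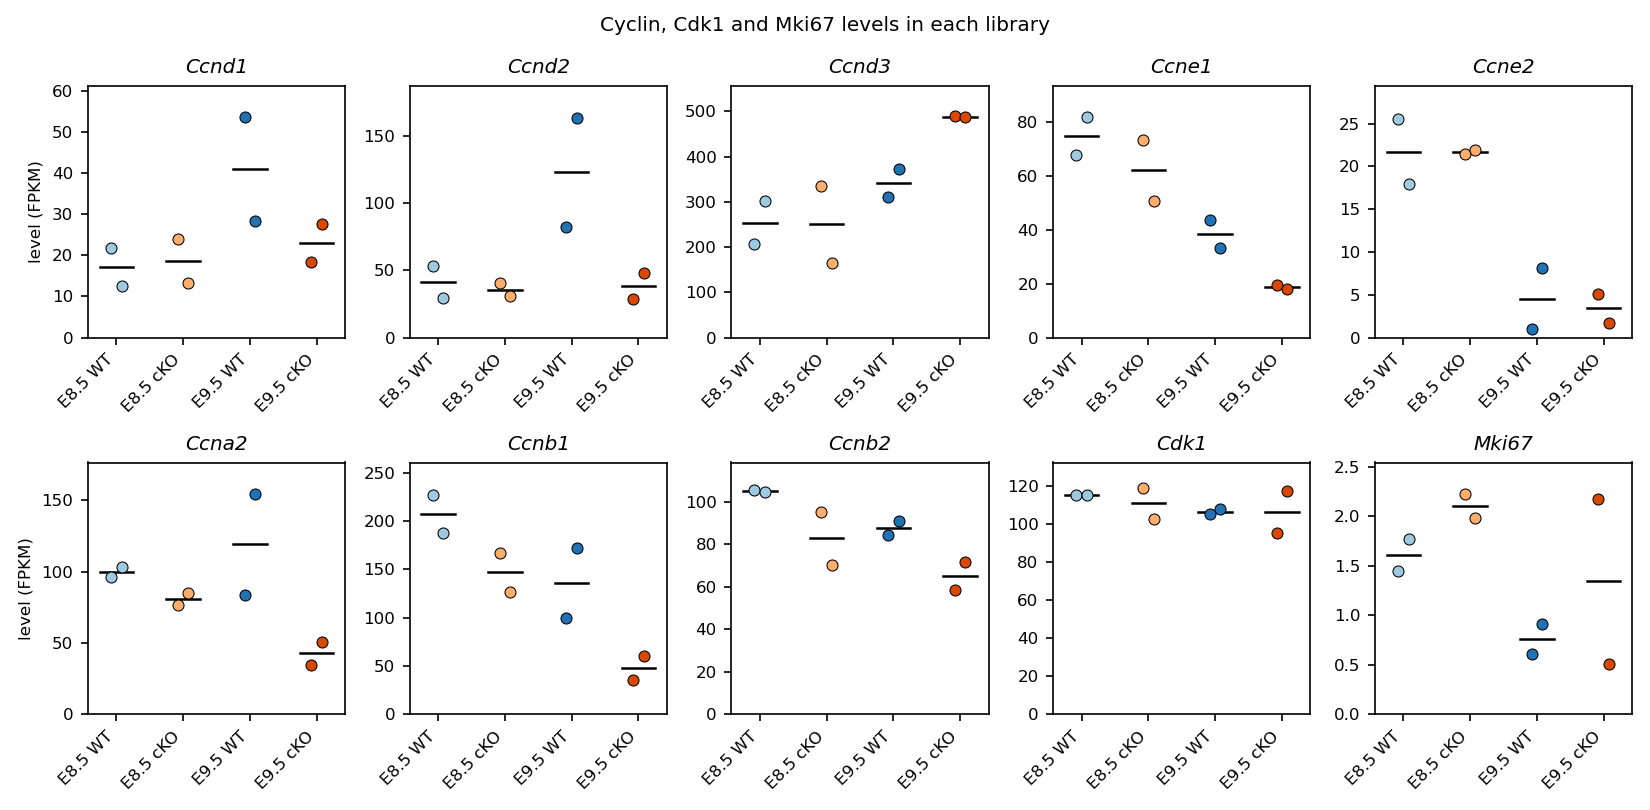
Level in FPKM (vertical axis, from 0) of each of the 10 genes in the 8 libraries, by stage and genotype. Points are libraries and the horizontal lines are means of 2 libraries. For *Ccnb1* and *Ccna2* both E9.5 cKO points lie below all other points, while the *Cdk1* points of all groups lie between 95.6 and 119 FPKM.

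The sequences before the start sites are printed for the 4 mitotic genes that have an entry. Such genes are commonly active in the same cell cycle phases. Whether a motif in these sequences goes with a genotype difference was not tested. RefSeq promoter entries (GRCm38.p6, 250 bases before to 50 after the start site) were found for 6 of the 10 genes. No entry was found for *Ccnd1*, *Ccnd2*, *Ccne2* and *Ccna2*. Capitals mark CCAAT, the box bound by NF-Y, on either strand (ATTGG when read on the other strand), the element TTTGAA known as the cell cycle genes homology region (CHR), and GGCGGGA, which is E2F-like. The matches do not overlap each other.
Ccnb1, chr13:100786437-100786736, minus strand: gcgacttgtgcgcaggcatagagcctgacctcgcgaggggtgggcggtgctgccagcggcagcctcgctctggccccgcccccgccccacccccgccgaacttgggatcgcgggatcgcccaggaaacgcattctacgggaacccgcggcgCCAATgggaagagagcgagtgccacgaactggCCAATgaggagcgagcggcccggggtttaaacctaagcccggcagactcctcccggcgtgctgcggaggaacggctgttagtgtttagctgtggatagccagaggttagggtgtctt
Ccnb2, chr9:70421505-70421804, minus strand: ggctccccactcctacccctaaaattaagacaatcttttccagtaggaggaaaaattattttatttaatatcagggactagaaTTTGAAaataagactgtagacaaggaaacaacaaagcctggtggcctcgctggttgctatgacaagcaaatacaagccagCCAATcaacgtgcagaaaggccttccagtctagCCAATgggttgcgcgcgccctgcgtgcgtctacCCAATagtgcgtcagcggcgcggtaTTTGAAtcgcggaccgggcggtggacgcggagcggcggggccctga
Cdk1, chr10:69352863-69353162, minus strand: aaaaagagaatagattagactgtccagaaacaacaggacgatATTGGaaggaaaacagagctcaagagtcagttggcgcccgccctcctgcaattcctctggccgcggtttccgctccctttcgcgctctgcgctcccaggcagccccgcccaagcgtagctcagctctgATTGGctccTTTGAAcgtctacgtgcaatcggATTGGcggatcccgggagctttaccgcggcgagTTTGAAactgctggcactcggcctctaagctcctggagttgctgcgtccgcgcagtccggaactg
Mki67, chr7:135716330-135716629, minus strand: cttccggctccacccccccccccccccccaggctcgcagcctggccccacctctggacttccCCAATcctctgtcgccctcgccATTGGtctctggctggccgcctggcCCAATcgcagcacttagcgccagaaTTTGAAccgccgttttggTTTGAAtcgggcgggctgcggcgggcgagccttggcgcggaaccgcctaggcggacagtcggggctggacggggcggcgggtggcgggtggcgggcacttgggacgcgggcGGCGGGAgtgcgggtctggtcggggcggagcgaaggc

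The *Ccnb1* window held 2 CCAAT matches and no TTTGAA. Of the forms of the CHR only TTTGAA and TTCGAA were searched, so a window without them may hold another form. The *Ccnb2* and *Cdk1* windows each held 3 CCAAT and 2 TTTGAA matches. The *Mki67* window held 3 CCAAT and 2 TTTGAA matches and a GGCGGGA. Of all 32851 promoters of this length, 37.41% held CCAAT, 17.89% TTTGAA and 11.34% GGCGGGA on either strand. The further searches for TTCGAA (1.562% of promoters) and TTTGGCGC (0.5144%) found no match in the promoters of the 6 genes that had an entry. *Ccne1* had 1 GGCGGGA, and of the 2 *Ccnd3* entries 1 held a CCAAT.

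At E9.5, transcripts of *Ccnd2*, *Ccna2*, *Ccnb1* and *Ccne1* were lower in both cKO libraries than in both WT libraries, while the *Cdk1* levels of the genotypes overlapped. *Ccnd3* was higher in both cKO libraries. No gene of the 10 passed adjustment in either direction in the limma fit over all genes, against 0.170% of all tested genes called higher and 0.00998% called lower. Before adjustment (limma p below 0.05 and 1.5-fold or more), 4 of the 10 genes were lower, against 9.99% of all genes, and 0 were higher, against 5.08%. The groups did not overlap for 6 genes that were lower (31.1% of all genes) and for 1 that was higher (21.0% of all genes). The median change of the 10 genes was −0.60 on the log2(FPKM + 1) scale, and that of all tested genes was −0.07.

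Cyclin B1, the mitotic partner of CDK1, is encoded by *Ccnb1* on chromosome 13 (100778739 to 100786486, GRCm38). It was listed at 99.8 and 172 FPKM in E9.5 WT against 34.8 and 60.6 FPKM in E9.5 cKO. The higher cKO library thus lay below the lower WT library. The log2 change was −1.49 ± 0.38 (SE), with a limma adjusted p of 0.136. *Ccnb2*, a B-type cyclin gene on chromosome 9 (70407689 to 70421554), measured 84.3 and 91.1 FPKM in WT against 58.4 and 71.7 FPKM in cKO. These groups did not overlap either, but the log2 change was only −0.43 ± 0.27 (limma adjusted p = 0.490).

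*Ccna2*, the somatic A-type cyclin gene, lies on chromosome 3 (36564865 to 36571996). Its level was 83.9 and 155 FPKM in E9.5 WT against 34.7 and 50.6 FPKM in E9.5 cKO, a log2 change of −1.42 ± 0.35 (limma adjusted p = 0.129). *Cdk1* on chromosome 10 (69336635 to 69352912), whose kinase binds the products of the A- and B-type genes, measured 105 and 108 FPKM in WT against 95.6 and 118 FPKM in cKO. Its cKO libraries lay on either side of the WT libraries. The log2 change of *Cdk1* was −0.01, with a 95% interval from −0.58 to 0.56, and its sign turned under median-ratio scaling (0.09). *Mki67* on chromosome 7 (135689788 to 135716379) was at 0.606 and 0.910 FPKM in WT. Its cKO libraries were far apart, at 2.18 and 0.509 FPKM, and spanned both WT values.

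Among the D-type cyclins the members differed in direction. *Ccnd2* on chromosome 6 (127125709 to 127151048) measured 82.3 and 164 FPKM in E9.5 WT against 28.7 and 48.2 FPKM in E9.5 cKO. Both cKO values lay under the lower WT value, and the log2 change of −1.62 ± 0.44 was the lowest of the 10 genes (limma adjusted p = 0.153). *Ccnd1* on chromosome 7 (144929931 to 144939925) measured 53.5 and 28.3 FPKM in WT against 18.4 and 27.5 FPKM in cKO, so that the groups were separated by less than 1 FPKM. Its log2 change was −0.77 ± 0.44 (limma adjusted p = 0.456). *Ccnd3* on chromosome 17 (47505051 to 47599688) was at 310 and 372 FPKM in WT against 489 and 487 FPKM in cKO. Its log2 change was 0.52 ± 0.37 (limma adjusted p = 0.557).

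For the E-type genes, *Ccne1* on chromosome 7 (38097984 to 38107490) measured 43.9 and 33.1 FPKM in E9.5 WT against 19.5 and 17.9 FPKM in E9.5 cKO, with a log2 change of −0.99 ± 0.29 (limma adjusted p = 0.168). The cKO replicates were close together and clear of both WT replicates. *Ccne2* on chromosome 4 (11191351 to 11204779) was at 1.0 and 8.11 FPKM in WT against 5.07 and 1.74 FPKM in cKO. The cKO values lay between the WT values, and the replicates of *Ccne2* within a genotype differed more than the genotypes. Relative to the median gene its difference was −1.11 without E9.5 WT replicate 1 and 1.09 without E9.5 WT replicate 2. Whether the genotype difference of *Ccne2* was unlike that of *Ccne1* was not tested.

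**Figure D2:**
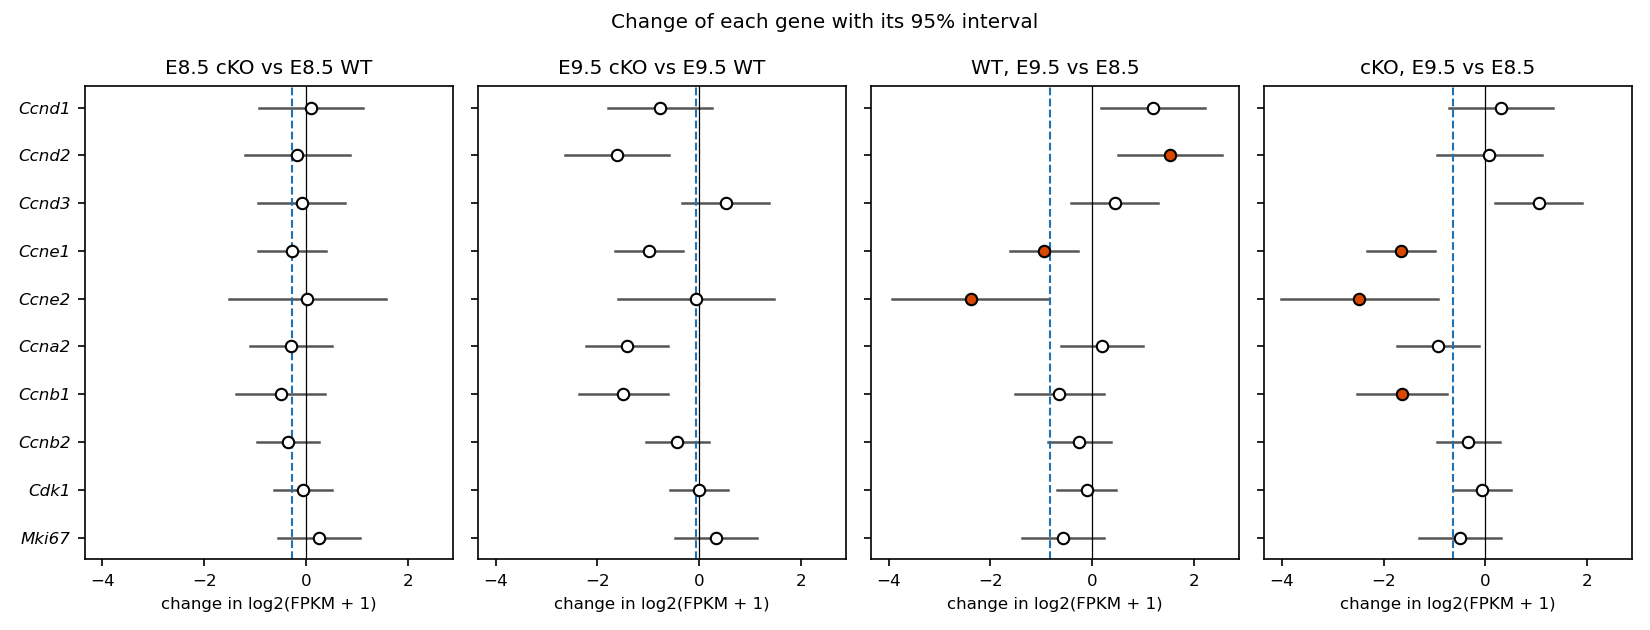
Change of each gene in log2(FPKM + 1) in 4 comparisons, with its 95% interval from limma. Filled points passed an adjusted p of 0.05 and 1.5-fold, and the dashed line is the change of the median tested gene. In the E9.5 genotype panel the intervals of *Ccnd2*, *Ccne1*, *Ccna2* and *Ccnb1* lie below 0 and no point is filled. The filled *Ccne1* point of the WT stage panel, at −0.95, turns to 0.05 under median-ratio scaling.

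Levels at E9.5 were compared under other scalings as well. Relative to the median gene, *Ccnd2* differed by −1.55, *Ccnb1* by −1.42, *Ccna2* by −1.35 and *Ccne1* by −0.92. After quantile normalization these values were −1.25, −1.13, −1.05 and −0.72 in the same order. Across 9122 tested genes with a known transcript sequence, the E9.5 change had a Spearman rho of 0.405 with GC content, and the difference of E9.5 WT replicate 2 minus replicate 1 had a rho of −0.63. Genes are not independent replicates, so these values only describe the libraries. The longest transcripts of *Ccnb1* (44.2% GC), *Ccna2* (46.2%) and *Ccnd2* (48.6%) were below the median of 50.7%, whereas *Ccne1* (52.7%) and *Ccnd3* (58.4%) were above it. With GC content taken out, the relative changes were −1.15 for *Ccnb1*, −1.11 for *Ccna2*, −1.41 for *Ccnd2* and −1.03 for *Ccne1*, and 0.34 for *Ccnd3*. Without E9.5 WT replicate 2, which held the higher *Ccnd2* and *Ccna2* levels, they were −1.05 for *Ccnd2* and −0.91 for *Ccna2*. Other differences also moved with 1 library. That of *Ccnd1*, −0.70 relative to the median gene, was −0.27 without E9.5 WT replicate 1 and −1.14 without E9.5 WT replicate 2. That of *Ccnb2*, −0.36, was −0.14 without E9.5 cKO replicate 1 and −0.58 without E9.5 cKO replicate 2.

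Marker levels of other cells and of cardiomyocytes also differed between the E9.5 genotypes, in both directions. The summed FPKM of the 10 cardiomyocyte markers was 58683 and 56854 in E9.5 WT against 80139 and 80274 in E9.5 cKO. Most of this sum came from *Myl7* and *Actc1*. Over all tested genes 21.0% were higher and 31.1% lower in cKO without overlap at E9.5, against which the counts of each list are to be read. Of the 10 markers 6 were higher in cKO without overlap, 3 overlapped (*Tnnt2*, *Myh7* and *Ttn*), and *Myh6* was lower without overlap, at 916 and 777 FPKM in WT against 424 and 567 FPKM in cKO. The 10 endothelial and endocardial markers summed to 106 and 101 FPKM in WT against 179 and 153 FPKM in cKO, and none was listed at 0. The largest part was *Egfl7*, at 53.1 and 34.2 FPKM in WT against 98.3 and 74.1 FPKM in cKO. Of these 10 markers 5 were higher in cKO without overlap, 2 were lower (*Tek*, at 5.50 and 6.94 FPKM in WT against 4.45 and 3.51 FPKM in cKO, and *Npr3*) and 3 overlapped (*Cdh5*, *Kdr* and *Emcn*).

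The sums of the erythroid and yolk sac endoderm lists overlapped between the E9.5 genotypes. Of the single markers, 4 of 8 erythroid and 2 of 9 yolk sac endoderm genes were higher in cKO without overlap, the latter a share near that of all genes (21.0%). The 8 myeloid markers summed to 9.69 and 12.3 FPKM in WT against 15.1 and 15.4 FPKM in cKO, most of it *Lyz2*, and *Ptprc*, which marks blood cells, was at 0 in 3 of the 8 libraries. Of the 8 decidua markers the defining *Prl8a2* was at 1.23 and 5.09 FPKM in WT against 2.08 and 0.746 FPKM in cKO at E9.5, and *Prl3c1* was at 0 in all 4 E9.5 libraries. Only *Des*, which heart muscle also expresses, was higher in cKO without overlap in that list, and *Dcn*, *Prlr* and *Wnt4* were lower. The part of these marker differences in the cyclin levels was not tested.

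At E8.5 no gene of the 10 passed the test between the genotypes. Changes between E8.5 cKO and WT hearts ran from −0.50 ± 0.38 for *Ccnb1* to 0.25 ± 0.35 for *Mki67*. In the limma fit 0 of the 10 were called in either direction (0.00998% of all genes higher and 0.00% lower) and 0 reached p below 0.05 with 1.5-fold before adjustment (0.240% higher and 6.90% lower). *Ccnb1* measured 227 and 187 FPKM in WT against 167 and 127 FPKM in cKO, without overlap. *Ccna2*, at 95.9 and 103 FPKM in WT against 76.5 and 85.3 FPKM in cKO, and *Ccnb2*, at 105 and 104 FPKM in WT against 95.2 and 70.3 FPKM in cKO, did not overlap either. Such lower values without overlap were also found for 40.1% of all genes. *Mki67*, at 1.45 and 1.77 FPKM in WT against 2.23 and 1.98 FPKM in cKO, was the only member higher without overlap, as were 2.54% of all genes. Relative to the median gene, whose change was −0.28, *Ccnb1* differed by −0.22 and *Ccna2* by −0.02, and the sign of *Ccna2* turned under median-ratio scaling (0.03). The value of *Ccnb1* was −0.35 without E8.5 cKO replicate 1 and −0.07 without E8.5 cKO replicate 2. *Mki67* stood at 0.53 and *Ccnd1* at 0.38 on the same relative scale, the latter at 0.03 without E8.5 WT replicate 2.

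Of the remaining genes at E8.5, *Ccnd2* was at 53.1 and 29.8 FPKM in WT against 40.3 and 30.7 FPKM in cKO. *Ccnd1* measured 21.8 and 12.6 FPKM in WT against 23.9 and 13.4 FPKM in cKO. *Ccnd3* ranged from 166 to 334 FPKM over the 4 libraries, and both extremes were cKO libraries. The E-type pair overlapped as well, with *Ccne1* at 68.0 and 81.9 FPKM in WT against 73.5 and 51.0 FPKM in cKO and *Ccne2* at 25.5 and 17.9 FPKM against 21.5 and 21.9 FPKM. *Cdk1* measured 115 and 116 FPKM in WT against 119 and 103 FPKM in cKO.

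The E8.5 libraries also stood apart from each other in markers of tissue around the embryo. *Prl8a2*, a decidual prolactin gene, was at 449 and 1141 FPKM in E8.5 WT and at 9.95 FPKM in replicate 1 but 5104 FPKM in replicate 2 of E8.5 cKO, and it did not exceed 5.09 FPKM in any E9.5 library. For the 8 myeloid markers the sum in the E8.5 WT libraries was 396 and 97.0 FPKM against 8.10 and 289 FPKM in cKO, and it lay between 9.69 and 15.4 FPKM at E9.5. The 9 yolk sac endoderm markers summed to 7536 FPKM in E8.5 cKO replicate 1 and to 873 to 2891 FPKM in the other E8.5 libraries. Leaving out any of the 4 E8.5 libraries left 0 of the 10 genes called between the E8.5 genotypes in limma. These markers differ between the stages as well as between E8.5 libraries, and their part in the E8.5 and stage results was not tested.

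Whether the genotype effect differed between the stages was tested as an interaction. *Ccnd2* gave −1.44 ± 0.63 (limma adjusted p = 0.693) and *Ccna2* −1.12 ± 0.49 (adjusted p = 0.693), both as E9.5 effect minus E8.5 effect in log2 units. *Ccnb1* gave −0.99 (limma adjusted p = 0.746). The value of *Ccnb1* relative to the median gene was −1.17, with −0.72 without E9.5 cKO replicate 1 and −1.64 without E9.5 cKO replicate 2. None of the 10 genes was called (0.0299% of all genes higher and 0.00998% lower), and 0 reached p below 0.05 with 1.5-fold before adjustment (5.69% higher and 1.49% lower). That 0 depended on the scaling. The unadjusted rule was met by *Ccnd2* and *Ccna2* under median-ratio scaling, by *Ccnd2* after quantile normalization and by *Ccnd2*, *Ccna2* and *Ccne1* after GC correction, all lower, with none called after adjustment (lowest limma adjusted p of these = 0.511, for *Ccne1*). A difference between the stages was therefore not shown for any of them. The share of all genes that met the unadjusted rule under these scalings was not counted, so no background stands beside these genes.

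The make-up of the cyclin families was compared within each library, where a common scale factor of the library cancels. An effect of GC content does not cancel. The longest transcripts of *Ccnd3* (58.4% GC) and *Ccnb2* (49.1%) exceed those of *Ccnd2* (48.6%) and *Ccnb1* (44.2%) in GC content. The part of GC content in the shares was not tested. *Ccnd3* held most of the D-type FPKM in every library. *Ccnd2* made up 18.5% and 29.0% of it in E9.5 WT but 5.35% and 8.58% in E9.5 cKO. At E8.5 the *Ccnd2* share was 18.8% and 8.67% in WT against 10.1% and 14.6% in cKO, so that the genotypes overlapped there. The *Ccnd3* share was 69.5% and 66.0% in E9.5 WT against 91.2% and 86.5% in E9.5 cKO. The sum of the 3 D-type genes did not separate the E9.5 genotypes, at 445 and 564 FPKM in WT against 536 and 562 FPKM in cKO.

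Within the B-type pair, *Ccnb1* held 63.7% to 68.3% of the FPKM in the 4 E8.5 libraries and 54.2% and 65.4% in E9.5 WT. In E9.5 cKO it held 37.3% and 45.8%, so that *Ccnb2* was the more abundant B-type transcript in these 2 libraries only. Between the E9.5 genotypes the mean share differed by −18.2 percentage points for *Ccnb1*, by −16.8 points for *Ccnd2* and by 21.1 points for *Ccnd3*. The *Ccne1* share of the E-type FPKM overlapped, at 97.8% and 80.3% in E9.5 WT against 79.4% and 91.1% in E9.5 cKO. With 2 libraries a group, an exact permutation test cannot give a two-sided p below 0.333, and no test was made of the shares.

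**Figure D3:**
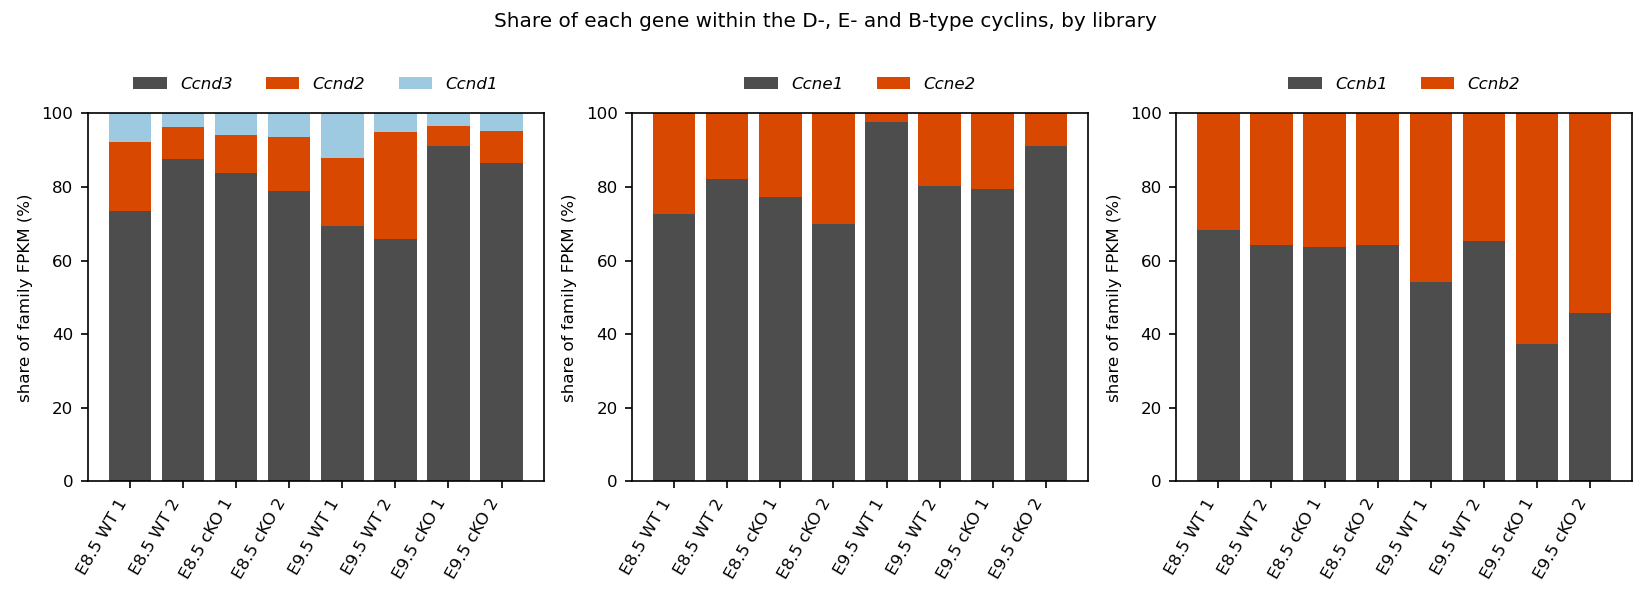
Share of each gene in the summed FPKM of the D-type, E-type and B-type cyclins (vertical axes, percent), with 1 bar per library labelled by group and replicate. In the 2 E9.5 cKO bars *Ccnd2* takes 5.35% and 8.58% of the D-type sum and *Ccnb1* takes 37.3% and 45.8% of the B-type sum.

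*Cdk1* stayed between 95.6 and 119 FPKM in the 8 libraries, and was used as a second within-library reference after its values had been seen. *Ccnb1* stood at 0.947 and 1.60 FPKM per FPKM of *Cdk1* in E9.5 WT against 0.364 and 0.515 in E9.5 cKO. At E8.5 the ratio was 1.97 and 1.62 in WT against 1.40 and 1.23 in cKO, so that the ratio was lower in the cKO libraries of both stages. *Ccna2* stood at 0.797 and 1.43 per *Cdk1* in E9.5 WT against 0.363 and 0.430 in E9.5 cKO. *Ccnb2* was more even, with 0.800 and 0.845 per *Cdk1* in E9.5 WT against 0.611 and 0.609 in E9.5 cKO. *Ccnd2* reached 0.781 and 1.52 per *Cdk1* in E9.5 WT, above the 0.257 to 0.460 of the other 6 libraries. *Ccne1* was lowest in E9.5 cKO, at 0.204 and 0.152 per *Cdk1*.

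**Figure D4:**
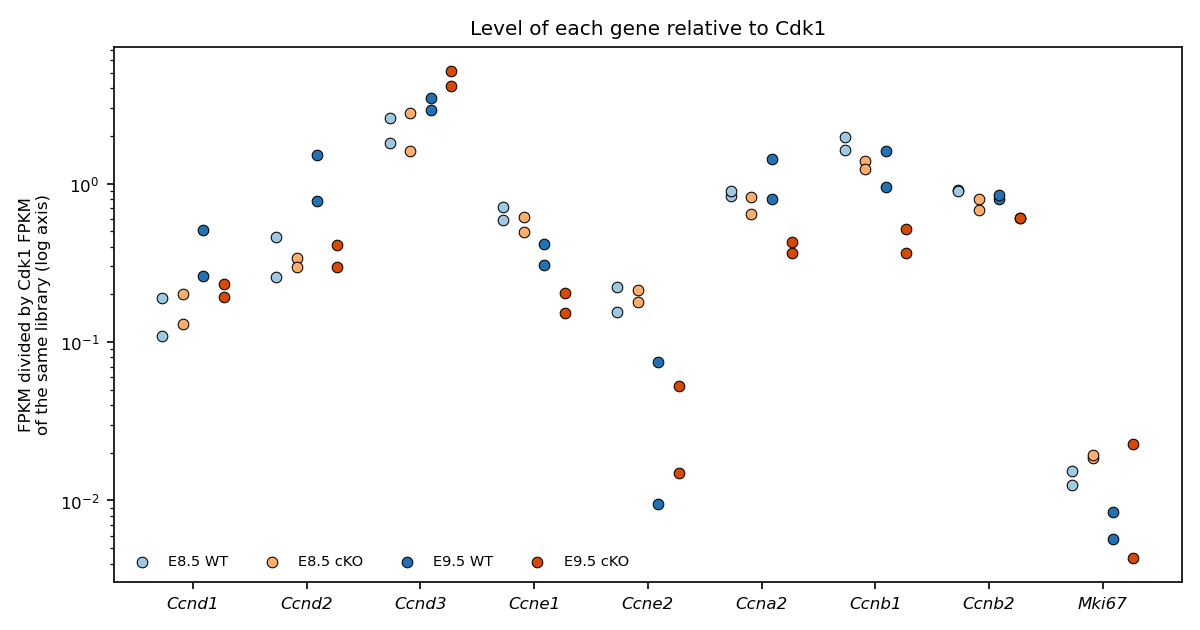
FPKM of each gene divided by the *Cdk1* FPKM of the same library (vertical axis, logarithmic), with 1 point per library and 1 colour per group. The E9.5 cKO points of *Ccna2* (0.363 and 0.430) and *Ccnb1* (0.364 and 0.515) lie below those of the other 3 groups, and the E9.5 WT points of *Ccnd2* (0.781 and 1.52) lie above them.

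In WT hearts *Ccnd2* rose between E8.5 and E9.5, with a log2 change of 1.52 ± 0.44 (limma adjusted p = 0.0279) against a median gene at −0.84. It was 1 of 10 genes called higher, against 1.40% of all tested genes. *Ccnd1* changed by 1.18 on the log2 scale, from 21.8 and 12.6 FPKM to 53.5 and 28.3 FPKM, and missed the threshold (limma adjusted p = 0.0561). *Ccnd1* passed under median-ratio scaling (limma adjusted p = 0.0405) and after GC correction (0.0391), but not after quantile normalization (0.0728). *Ccnd3* measured 207 and 301 FPKM at E8.5, and its 310 and 372 FPKM at E9.5 lay above them. These 3 D-type genes were the ones whose E9.5 WT libraries lay above the E8.5 WT libraries, as was found for 5.43% of all genes. Before adjustment 2 of the 10 genes were higher (1.93% of all genes) and 2 lower (57.4%). The *Ccnd2* call was lost after quantile normalization (adjusted p = 0.0665 in limma), with all listed genes tested, and when any of the 4 WT libraries was left out (highest adjusted p 0.147).

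The E-type genes went down with stage in FPKM. In WT hearts *Ccne2* was at 25.5 and 17.9 FPKM at E8.5 and at 1.0 and 8.11 FPKM at E9.5, a log2 change of −2.39 ± 0.67 (limma adjusted p = 0.0248). *Ccne1* went from 68.0 and 81.9 FPKM to 43.9 and 33.1 FPKM, a log2 change of −0.95 ± 0.29 (limma adjusted p = 0.0319). These were 2 of 10 genes called lower, against 46.7% of all tested genes, so that a lower FPKM at E9.5 was common. Without a test, 6 of the 10 genes lay lower at E9.5 with no overlap, against 80.1% of all genes. Relative to the median gene the change of *Ccne2* was −1.55, but −0.48 without E9.5 WT replicate 1, the library at 1.0 FPKM, and −2.67 without E9.5 WT replicate 2. That of *Ccne1* was −0.12 and turned to 0.08 under median-ratio scaling. Neither call was kept under median-ratio scaling (limma adjusted p = 0.268 for *Ccne2* and 0.938 for *Ccne1*), after quantile normalization or after GC correction. *Ccne2* was then at −1.49, −1.37 and −1.03 relative to the median gene. Leaving out E8.5 WT replicate 1, E8.5 WT replicate 2 or E9.5 WT replicate 1 left 0 such calls. Leaving out E9.5 WT replicate 2 or either E9.5 cKO library left *Ccne2* alone.

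In cKO hearts *Ccnd2* changed by 0.08 on the log2 scale (limma adjusted p = 0.902, and −0.04 with the table rescaled to loci of at least 300 bp), from 40.3 and 30.7 FPKM to 28.7 and 48.2 FPKM. Set against the median gene this was 0.71, with 0.29 without E9.5 cKO replicate 2 and 1.12 without E9.5 cKO replicate 1, and 0.87 under median-ratio scaling. *Ccnd3* changed by 1.05 ± 0.37 (limma adjusted p = 0.0624) and was the only member whose E9.5 cKO libraries lay above both E8.5 cKO libraries, as for 7.05% of all genes. It passed the threshold without E8.5 cKO replicate 1, the E8.5 cKO library with the higher level (334 FPKM), and under median-ratio scaling (limma adjusted p = 0.0356). No member was called higher, against 2.05% of all genes. *Ccne1* fell by 1.66 ± 0.29 (limma adjusted p = 0.0161), *Ccne2* fell by 2.48 ± 0.67 (adjusted p = 0.0312) and *Ccnb1* fell by 1.64 ± 0.38 (adjusted p = 0.0224), which made 3 of 10 called lower against 28.5% of all genes. *Ccna2* changed by −0.93 (limma adjusted p = 0.0726), from 76.5 and 85.3 FPKM to 34.7 and 50.6 FPKM without overlap. Against the median gene this was −0.29, or −0.13 under median-ratio scaling and −0.02 after GC correction, and it turned to 0.01 without E9.5 cKO replicate 1. By the unadjusted rule 1 gene was higher (3.25% of all genes) and 4 were lower (42.9%), and 4 were lower with no overlap (62.7%).

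Relative to the median gene, which changed by −0.64 in cKO hearts, *Ccne1* stood at −1.02, *Ccne2* at −1.84 and *Ccnb1* at −1.0. The value of *Ccnb1* was −0.57 without E9.5 cKO replicate 1 and −1.46 without E9.5 cKO replicate 2. In WT hearts *Ccna2* stood at 1.03 relative to the median gene, and *Ccnb1* at 0.18, which turned to −0.27 after quantile normalization and to −0.22 without E9.5 WT replicate 2. Without that library *Ccna2* stood at 0.57, and without E9.5 WT replicate 1 at 1.45. The difference between these courses is the interaction given above, which none passed. Median-ratio scaling ended all 3 cKO calls (limma adjusted p = 0.118 for *Ccne1*, 0.138 for *Ccne2* and 0.228 for *Ccnb1*), and so did quantile normalization (adjusted p = 0.0751, 0.150 and 0.104). The changes relative to the median gene were then −0.88, −1.81 and −0.84 under median-ratio scaling and −0.98, −1.77 and −1.11 after quantile normalization, in the same order. With GC content taken out the cKO change of *Ccnb1* was −0.60 (limma adjusted p = 0.315) and *Ccne1* alone was still called (adjusted p = 0.0263). *Ccne2* was then at −1.09 relative to the median gene (limma adjusted p = 0.114). The rho between the cKO stage change and GC content was 0.510. Leaving out either E9.5 cKO library left 0 of the 3 calls. *Cdk1* changed by −0.11 in WT and −0.06 in cKO on the FPKM scale, and under median-ratio scaling by 0.90 and 0.71, without passing the test in any of these.

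Other genes of the cell cycle machinery were followed at E9.5 in 7 lists. None of them held a gene that passed adjustment in limma between the genotypes. Of the 26 chromosome and spindle proteins of mitosis, such as kinesins and condensins, 2 were lower by the unadjusted rule (p below 0.05 and 1.5-fold or more), and the list median lay at −0.16 relative to the median gene. *Tpx2*, a spindle assembly factor, had the lowest change, −0.89 ± 0.27 (limma adjusted p = 0.178), and the condensin subunit gene *Smc4* the highest, 0.70 ± 0.58. Of the 16 other mitotic kinase and checkpoint genes 1 was lower, *Mad2l1* of the spindle checkpoint (−1.5 ± 0.40, limma adjusted p = 0.143), and the list median was −0.24. *Mastl*, the Greatwall kinase gene, was the highest of these at 0.00.

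The anaphase promoting complex, the ubiquitin ligase that destroys the B-type cyclins, and its regulators had 5 of 19 genes lower and 1 higher. The lowest was *Fbxo5*, encoding its inhibitor EMI1, at −1.24 ± 0.31 (limma adjusted p = 0.136), and the highest was its E2 enzyme gene *Ube2s* at 0.96 ± 0.35 (adjusted p = 0.248). Among 14 kinases and regulators of G1 and S phase 3 were lower, *Cdc7*, *Cks2* and *Skp2*, and 0 higher, with a list median of −0.46. *Skp2*, which targets the inhibitor p27 for destruction, changed by −1.14 ± 0.32 (limma adjusted p = 0.158). *Cdc25b*, a phosphatase gene that activates CDK1, had the highest change of this list, 0.76 ± 0.36 (adjusted p = 0.361).

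Of the RB and E2F genes 13 of 19 were tested, with 1 lower and 1 higher. *Tfdp1*, which encodes the dimer partner of E2F, changed by −0.89 ± 0.31 (limma adjusted p = 0.233) and *E2f1* by 0.80 ± 0.23 (adjusted p = 0.166). Of 13 other cyclin genes 12 were tested and 2 were lower, *Ccnc* and *Ccnh*, the latter at −1.06 ± 0.31 (limma adjusted p = 0.171), while *Ccni* was the highest at 0.44. The median of that list was −0.02 relative to the median gene. By the same unadjusted rule 9.99% of all genes were lower and 5.08% higher.

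The largest difference of the 7 lists was that of *Cdkn1a*, which encodes the CDK inhibitor p21. It measured 4.19 and 4.35 FPKM in E9.5 WT against 24.6 and 24.4 FPKM in E9.5 cKO. The 2 pairs were far apart, with a log2 change of 2.28 ± 0.34 and a limma adjusted p of 0.0648, which missed the threshold. At E8.5 it was at 12.7 and 5.72 FPKM in WT against 8.13 and 7.94 FPKM in cKO. Between the stages *Cdkn1a* rose in cKO hearts by 1.5 ± 0.34 on the log2 scale (limma adjusted p = 0.0210), while its interaction of 2.36 did not pass (adjusted p = 0.307). Of 8 CDK inhibitor genes 5 were tested, and *Cdkn3* had the lowest E9.5 change at −0.50.

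**Figure D5:**
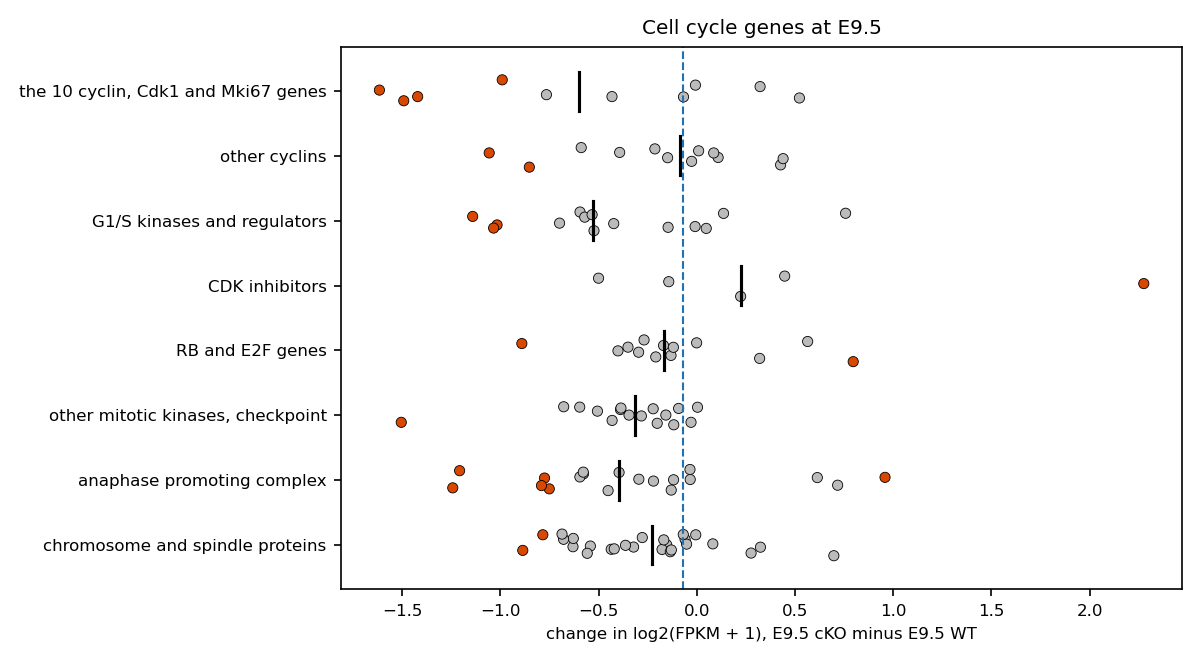
Change in log2(FPKM + 1) between E9.5 cKO and E9.5 WT (horizontal axis) of each tested gene of the 10 cyclin, *Cdk1* and *Mki67* genes and of 7 other cell cycle lists. Orange points had p below 0.05 before adjustment in limma and a change of 1.5-fold or more, black bars are list medians and the dashed line is the median tested gene at −0.07. *Cdkn1a* is the point at 2.28, and *Ccnd2* at −1.62 is the lowest point drawn.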

How the data were processed

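Total RNA of dissected hearts was made into SMARTer (Smart-seq type) libraries, sequenced on an Illumina HiSeq and mapped with BWA, per the study's methods and the submitters' processing notes. The authors deposited 1 table of FPKM per library. The program that made it is not given in the sources used here. The notes name mm9, but gene starts in the table matched GRCm38 for 91.7% of 9515 genes and NCBIM37 for 5.07% of 9257 (within 1000 bp), so coordinates are given as GRCm38, counted from 1. Of 24930 entries, 285 symbols were repeated, and of each the entry with the largest mean was used. FPKM carries no counts, so absolute depth and counting error are unknown and no count test was run.

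Values were analysed as log2(FPKM + 1), a scale that understates changes of low genes such as *Mki67*. All 8 libraries, grouped by their labels, were fitted in 1 model of 4 groups with limma 3.58.1 (R 4.3.3, moderated variances with trend) over the 10018 genes averaging 1 FPKM or more, with two-sided p-values adjusted by the Benjamini-Hochberg method. Calls needed an adjusted p below 0.05 and a 1.5-fold change. Here p-values rest on the spread between the 2 replicates of a group, pooled over all 4 groups and moderated across genes. The 10 genes were all named; of each other cell cycle list, the genes with the lowest and highest change at E9.5 and genes called between genotypes were named. Any other gene of these lists was named after its values were seen. Promoters were taken from RefSeq. The members and lists were chosen with earlier results of these data known. The procedure was tested on simulated data. Alternatives were 3 other scalings, other pseudocounts and filters, a fit of only the libraries compared, each library left out and the replicate number as a block. A GC correction and a crossed pairing were chosen after seeing the data. Correlations of same-numbered libraries between groups lay between -0.116 and 0.195. Whether same-numbered libraries shared a batch is not known from these values.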

Additional observations from a re-analysis of the deposited data

How the results depend on the processing

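With 2 libraries a group, the E9.5 genotype result was 0 calls under each setting, and 3 to 4 genes were lower before adjustment (p below 0.05 and 1.5-fold) when a library was left out. The stage calls depended on the processing. Counts in brackets are of all genes called, out of 10018 tested (9122 with the GC correction and 19580 with no filter). In WT 1 gene of the 10 was called higher (140). This became 2, *Ccnd1* and *Ccnd2*, with median-ratio scaling (293), the GC correction (309), the replicate block (145) and the crossed pairing (214). It became 0 with quantile normalization (88) or no filter (91). The 2 genes called lower in WT (4683) became 0 with median-ratio scaling (65), quantile normalization (27) or the GC correction (108). With no filter 1 was left (3273). In cKO, the 0 genes called higher (205) became 1 with median-ratio scaling (357). The 3 called lower (2857) became 0 with median-ratio scaling (74) or quantile normalization (49). With no filter (1098) or the GC correction (98) 1 was left. The cause was not tested. With no filter, more low genes are tested, and the median change of the 10 genes relative to the median gene moved from 0.65 to 0.18 in WT and turned from 0.22 to -0.23 in cKO. Relative to the median gene, *Ccne1* in WT (-0.12) turned to 0.078 with median-ratio scaling (0.052 on the rescaled FPKM) and 0.063 with a pseudocount of 0.1, and ran from -0.333 to 0.063 with a library left out, turning without E8.5 WT replicate 2 or E9.5 WT replicate 2.

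Leaving out 1 library gave 0 to 2 genes called higher and 0 to 2 lower in WT against 0 to 1 higher and 0 to 3 lower in cKO. The WT higher call was 0 without any of the 4 WT libraries and 2 without either E8.5 cKO library. The E9.5 share difference was -22.1 to -11.5 points for *Ccnd2*, 18.8 to 23.5 for *Ccnd3*, -23.8 to -12.6 for *Ccnb1* and -12.5 to 4.93 for *Ccne1*, which turned without E9.5 WT replicate 1 (4.93) or E9.5 cKO replicate 1 (2.09). The sample titles link libraries of different groups by a replicate number only. Correlations of same-numbered libraries were -0.116 to 0.195, and the block changed no other call. Scaling changed the split of all stage calls in WT from 140 higher and 4683 lower to 293 and 65 with median-ratio scaling, and in cKO from 205 and 2857 to 357 and 74.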

Other observations

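The tested genes whose pattern over the 8 libraries lay nearest to each cyclin group are given as a description, by Euclidean distance between profiles centred on each gene's median after subtraction of each library's median log2 level. For the mean of the 3 D-type cyclin genes the nearest were *Ngfrap1* (distance 0.548 over 8 libraries), *Slc25a5*, *Got2*, *Atp5g3* and *Calr* (0.650). *Slc25a5*, an adenine nucleotide carrier of mitochondria, measured 1917 and 1844 FPKM in E9.5 WT against 828 and 1172 FPKM in E9.5 cKO. Its E8.5 levels ran from 704 to 1040 FPKM. For the E-type pair the nearest were *Katnbl1* (distance 0.330), *C1galt1c1*, *Ptbp2*, *Pdcd10* and *Rpe* (0.546). *Pdcd10* was at 29.1 to 30.1 FPKM in the 4 E8.5 libraries and at 6.60 to 12.1 FPKM in the 4 E9.5 libraries. For the 5 S and M phase genes the nearest were *Lman1* (distance 0.288), *Slc1a3*, *Sec13*, *Skida1* and *Dusp22* (0.385). *Lman1*, a cargo receptor between the endoplasmic reticulum and the Golgi apparatus, measured 24.9 and 31.8 FPKM in E9.5 WT against 16.4 and 20.0 FPKM in E9.5 cKO. None of these 15 genes is a cell cycle gene of the lists used. A short distance is a likeness of levels over 8 libraries that share depth and base composition effects, and nothing was tested on it.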
